A study of Glycine max with 12 samples.

Results

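The set described here holds 200 soybean genes whose transcripts were read in every library labelled R5 and were at or near 0 in every library labelled V5. CPM is a gene's read count scaled to a common library total. Genes entered the set when every one of the 6 R5 libraries was above 1 CPM and no V5 library of the 6 was above 0.1 CPM. Of 56044 gene IDs, 391 met both limits, which is 0.698% of all IDs, and the 200 with the highest mean CPM over the R5 libraries were kept. The genes were thus chosen by their CPM in the R5 and V5 libraries, and these levels are given as a description without a test.

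RNA came from field-grown plants of the cultivar Thorne and from edited lines of it, and the question of the study was how editing a major seed protein locus and its paralog changed expression. Wild type is Thorne, the single mutant carries an edit in the chromosome 20 gene (Gm20), and the double mutant carries edits in that gene and in its chromosome 10 paralog (Gm20/Gm10). Each genotype has 2 libraries labelled R5 and 2 labelled V5, which makes 6 groups. Material came from 3 to 5 plants and is labelled seed in every library, V5 included, although V5 names a stage before any seed forms. What tissue the V5 libraries hold could not be checked, so a difference of stage and a difference of tissue cannot be told apart in what follows. The sources used here do not give the type of edit, the number of independent lines or the way plants were pooled, and nothing says that the 2 libraries of a group came from separate plants. The p-values below thus rest on sample-to-sample spread alone, and that spread may be technical.

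R5 is the growers' name for the stage at which soybean seed begins to fill, and V5 is the name of a leafy stage before flowering. A developing seed switches large gene programmes on and off as the embryo grows, stores protein and oil, and dries. Soybean descends from a plant with a doubled genome and often keeps similar genes side by side on a chromosome, so genes of one family can be read in one organ or stage and be silent in another. In whole-tissue RNA, fewer cells of a type and less RNA per cell cannot be told apart. A soybean ID such as Glyma.15G239200 names the chromosome before the letter G, and its last digits rise along the chromosome.

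The deposited tables give no names for the IDs, and 0 of the 56044 IDs matched the RefSeq table of 59048 genes. The 200 genes therefore appear by ID, no function is given for any of them, and markers of seed, leaf or other organs could not be counted to check the tissue label. Library totals were 26966329 to 34626177 counts at R5 and 20410270 to 21066989 at V5. The IDs of the edited pair, taken from background knowledge, had 0 to 4 counts (Glyma.20G085100) and 0 to 6 counts (Glyma.10G134400) in the R5 libraries. At V5 Thorne gave 16 and 17 counts of Glyma.20G085100, double mutants 31 and 21, and single mutants 31 and 10. For Glyma.10G134400, Thorne gave 41 and 28 counts, double mutants 25 and 19, and single mutants 67 and 34. Since an edit need not lower a transcript's count, the genotype labels could not be checked this way. At R5 replicate 1 of the double mutant lies close to replicate 2 of the single mutant although their labels differ. The spread of the set and its median log2 fold changes against wild type are given with and without this close pair. Counts at an unadjusted p, of groups that did not overlap and of 2-fold differences are given only with it. At V5 the single mutant replicate 2 stands apart from the other 5 libraries, and without it 563 genes met the rule.

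The set held a small and varying part of the RNA at R5. It took 0.801% and 0.915% of all counts in the wild-type libraries, 0.639% and 0.721% in the double mutant, and 0.888% and 0.661% in the single mutant. The mean was 0.771% ± 0.116 (SD, n = 6), and the 95% exact binomial intervals of the single libraries reached no further than 0.636% to 0.919%, counting error only. The close pair was lowest. Both double mutant shares lay below both wild-type shares, and the single mutant spanned from below the wild-type values to between them. Levels were uneven within the set. The mean R5 level ran from 6.91 to 584 CPM with a median of 17.5 CPM, beside a median of 15.02 CPM for the 29640 genes above 1 CPM in every R5 library. A total of 17 genes averaged above 100 CPM and 49 below 10 CPM, and the 10 highest supplied 28.2% to 32.6% of the set's counts in each R5 library.

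The most abundant gene was Glyma.07G115500 on chromosome 7. Wild type gave 846 and 656 CPM, the double mutant 226 and 755 CPM, and the single mutant 827 and 191 CPM. Both low values belong to the close pair, and within each mutant the replicates lay further apart than those of wild type. The next gene by mean level, Glyma.02G028000, was read at 425 and 137 CPM in Thorne, at 143 and 329 CPM in double mutants and at 216 and 103 CPM in single mutants. Here wild-type replicate 2 was as low as the double mutant replicate 1, and all 3 genotypes overlapped.

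**Figure D1:**
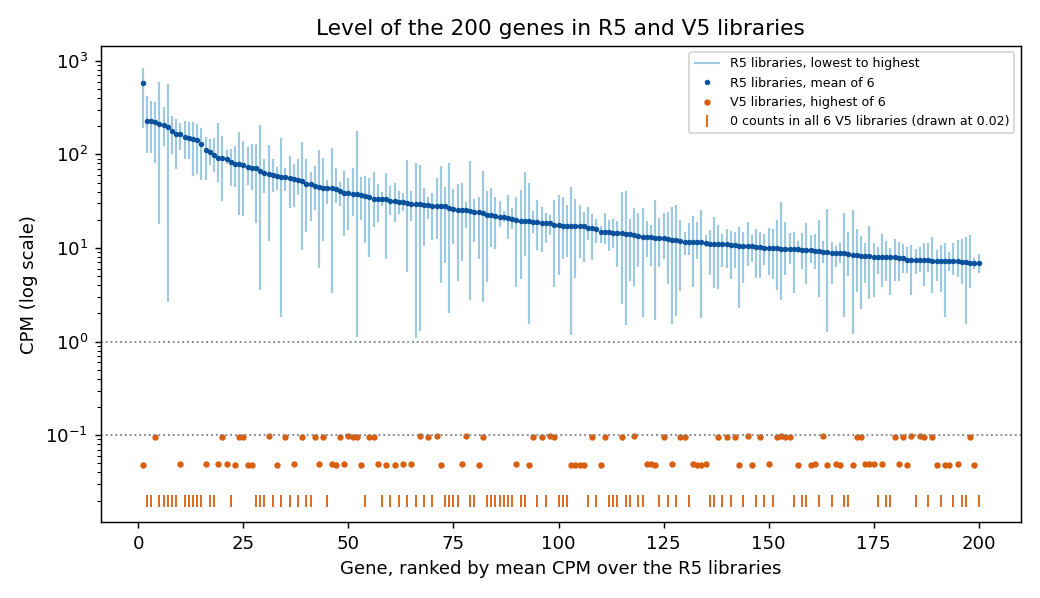
CPM on a log scale for the 200 genes, ranked by mean R5 level. Blue points are means of the 6 R5 libraries with lines from the lowest to the highest library, orange points are the highest V5 library, and orange ticks drawn at 0.02 mark the 91 genes with 0 counts in all V5 libraries. The dotted lines at 1 and 0.1 CPM are the limits of the rule, so the gap between the colours was set by the choice of genes.

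In the V5 libraries 91 of the 200 genes had 0 counts throughout and 109 had at least 1 count in some library. The whole set summed to 43 and 33 counts in the wild-type V5 libraries, 46 and 42 in the double mutant, and 41 and 73 in the single mutant. The highest sum belonged to the single mutant replicate 2, with 73 counts against 46 for the next library. The rule capped these counts, so no interval is given for the sums. No gene exceeded 2 counts in any V5 library, which is what the limit of 0.1 CPM allows at this depth. The same limit caps the V5 counts of every gene whatever its R5 level. The 50 most abundant genes of the set had 1017526 R5 counts and 60 V5 counts in all, and the 50 least abundant had 79167 and 85. Glyma.19G256800 had the most V5 counts, 10 in all over 5 libraries, at a mean R5 level of 10.4 CPM. Glyma.09G260300, with 9 counts, was the single gene read in all 6 V5 libraries.

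For the 91 genes at 0, a fold difference can be given only as a lower bound, taken against 3 counts over the 6 V5 libraries together. Their mean R5 level was at least 287-fold to at least 9354-fold higher than that floor in CPM, and the latter value belongs to Glyma.02G028000. Scaling all 12 libraries by TMM, which corrects for the few genes that take much of a library, lowers the R5 levels relative to V5 by 0.49 on the log2 scale. The edge of the set was gradual. The last gene kept, Glyma.11G044800, averaged 6.91 CPM at R5 and the first left out, Glyma.18G184600, averaged 6.90 CPM. The remaining 191 genes that met the rule averaged down to 1.45 CPM. On the V5 side, 180 further genes above 1 CPM in every R5 library had a highest V5 level above 0.1 and up to 0.2 CPM, and 60 of these had a mean R5 level above that of the last gene kept.

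The 200 genes differed between the R5 libraries more than most genes read at that stage. The standard deviation (SD) of log2 CPM over the 6 R5 libraries had a median of 0.70 in the set, with an interquartile range of 0.46 to 1.11. It was 0.28 for the 29640 genes above 1 CPM in every R5 library and 0.26 for the 21904 of these with a mean in the same range as the set, and 7.09% of the latter exceeded the median of the set. Because the R5 levels chose the genes, these values are a description. Poisson counting alone would give an SD of 0.077 at the median of the set and 0.18 for the gene where it is highest, beside 0.068 at the median of the 29640 genes. A total of 75 genes (37.5%) differed at least 4-fold between their lowest and highest R5 library, against 5.04% of the 29640 genes. At least a 10-fold range was seen in 30 genes and a range under 1.5-fold in 6.

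**Figure D2:**
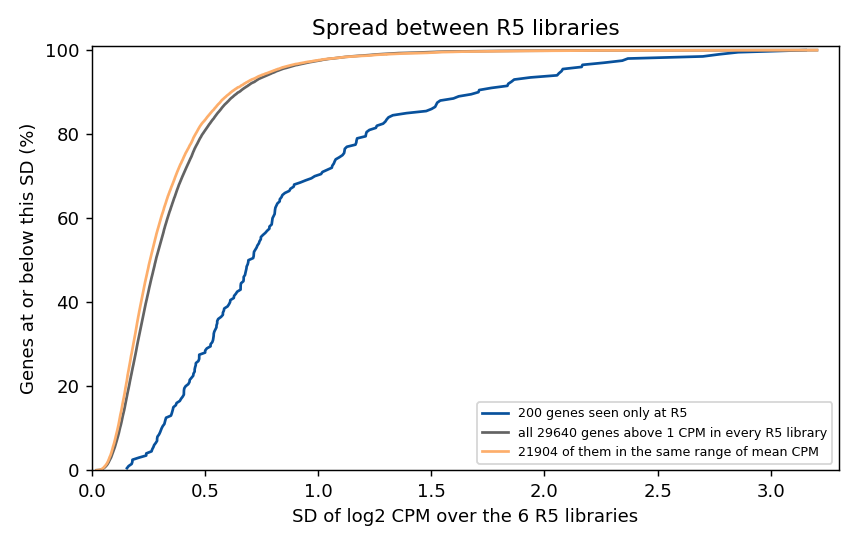
Cumulative share of genes (%) against the SD of log2 CPM over the 6 R5 libraries. The blue line for the 200 genes lies to the right of the lines for all 29640 genes above 1 CPM in every R5 library (grey) and for the 21904 of them in the same range of mean CPM (orange), with medians of 0.70, 0.28 and 0.26.

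Spread was also described over all genes ordered by their V5 level. The lowest class holds the 391 genes that met the rule, the set among them, so it is not independent of the set. Among the genes above 1 CPM in every R5 library, the median SD over the R5 libraries was 0.57 for the 631 genes with a mean V5 level of 0.1 CPM or less, 0.43 for the 2011 genes between 0.1 and 1 CPM, 0.31 for the 12529 between 1 and 10 CPM and 0.23 for the 13672 between 10 and 100 CPM. It was 0.30 for the 797 genes above 100 CPM. Genes with a V5 level near 0 had the widest spread of these 5 classes. Their median R5 level of 5.77 CPM was also below that of the 3 classes above 1 CPM at V5. It was above the 4.21 CPM of the class between 0.1 and 1 CPM. The part of the R5 level in the spread was not tested here. The genes that met the rule and were too low to be kept had a median SD of 0.57, and 16.8% of them had a 4-fold range.

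Much of this spread lay between the close pair and the other 4 R5 libraries. Both libraries of the pair were below all 4 others for 100 genes of the set and above all 4 for 56, which leaves 44 in neither state. The shares of 50% and 28% stand beside 45.7% and 18.0% of the 29640 genes. They were 48.4% and 18.8% for the 21904 genes in the same range of mean CPM. The first principal component of the log2 deviations held 84.8% of their variance in the set, 74.3% over the 29640 genes and 78.7% over the 21904. The 100 genes low in the pair took 0.187% and 0.194% of the counts in its libraries and 0.441% to 0.675% in the others. The 56 genes high in the pair took 0.316% and 0.326% there and 0.0786% to 0.123% elsewhere.

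**Figure D3:**
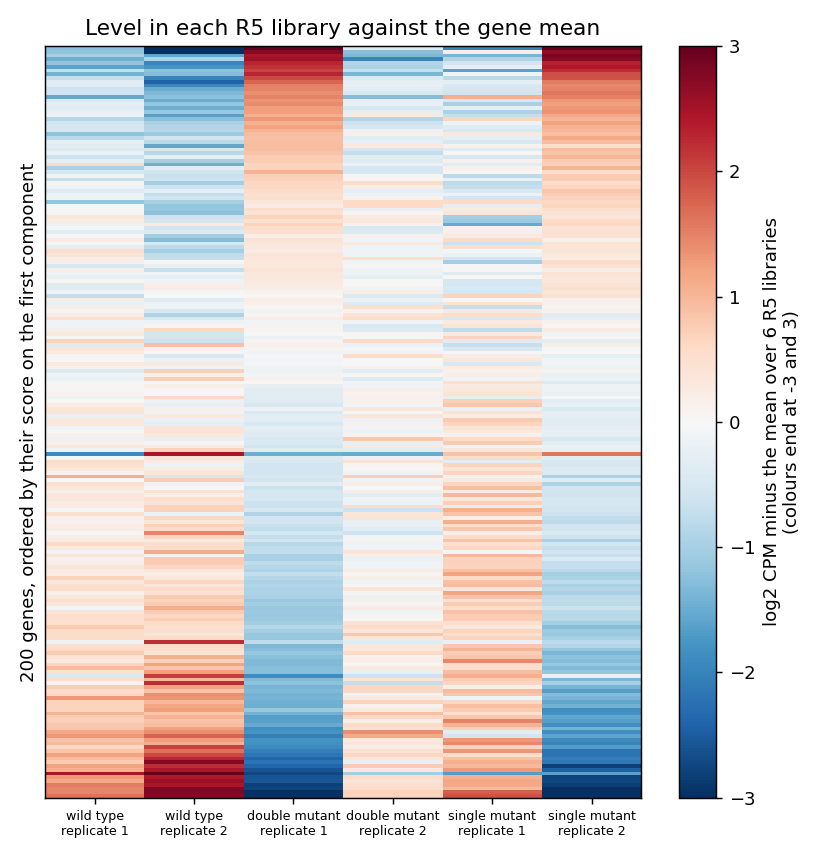
Log2 CPM of each of the 200 genes minus its mean over the 6 R5 libraries, 1 row per gene ordered by the first principal component and 1 column per library, with red above and blue below the mean. Replicate 1 of the double mutant and replicate 2 of the single mutant share a pattern that the other 4 libraries oppose, most of all wild-type replicate 2.

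Single genes show how far the pair departs. Glyma.14G085600 had 559 CPM in the double mutant replicate 1 and 549 CPM in the single mutant replicate 2, against 17.0 and 2.62 CPM in Thorne. The remaining replicates of the mutants had 30.1 CPM (double) and 10.3 CPM (single). It was the most variable gene of the set, with an SD of 3.15 on the log2 scale, and its high values came from 2 libraries of different genotypes. Glyma.02G141900 showed the opposite pattern, with 1.85 and 2.21 CPM in the pair and 35.8 to 150 CPM in the other 4 libraries. At the other end, Glyma.08G079200 ranged from 8.89 to 11.8 CPM and Glyma.02G031100 from 5.96 to 7.86 CPM over all 6 R5 libraries. These steady genes belong to the lower part of the set by level, at ranks 157 and 199.

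Without the close pair the median SD of the set was 0.43 over the remaining 4 R5 libraries, beside 0.19 for the 29640 genes, and 18 genes (9%) had a 4-fold range against 1.08% of all. Replicates of a genotype were not the most alike. The SD of the log2 ratio over the 200 genes was 0.33 between the libraries of the close pair, where it was 0.18 over the 29640 genes, and 0.47 between wild-type replicate 1 and the double mutant replicate 2, where it was 0.25. Between replicates it was 0.86 in wild type, 1.49 in the double mutant and 1.72 in the single mutant, beside 0.39, 0.65 and 0.65 over the 29640 genes. Between the libraries of the close pair 3 genes (1.5%) differed by 2-fold or more, beside 0.155% of the 29640. Between replicates 41 genes (20.5%) did so in wild type, 90 (45%) in double mutants and 120 (60%) in single mutants, beside 2.80%, 11.1% and 11.7% of the 29640.

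The 200 genes lie on all 20 chromosomes, apart from 2 of them on unplaced sequence. Chromosome 7 held 19 of them (9.5%), against 5.12% of the 29640 genes read in every R5 library, and chromosomes 2 and 12 held 16 each (8%), against 5.76% and 4.24%. Chromosomes 4 and 16 held 3 each (1.5%), against 4.76% and 3.60%. By counts, chromosome 7 supplied 16.1% and chromosome 15 supplied 13.3% of the set's R5 reads, the former with Glyma.07G115500 and the latter with a run of adjacent IDs. No test was made of these shares.

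Members of the set often had another member near them. Within 3 IDs on the same chromosome, 36 of the 200 genes (18%) had at least 1 other gene of the set. Of the 1120 gene IDs that lie that close to any of the 200 genes, 36 (3.21%) belonged to the set, while the set makes up 0.357% of all IDs. The other 1084 neighbours were not unusual in being read, since 47.5% of them were above 1 CPM in all R5 libraries against 52.9% of all IDs, and 15.7% had 0 counts in all 12 libraries against 14.0%. The 36 genes formed 15 runs, 11 of 2 genes, 3 of 3 genes and 1 of 5 genes. Reads of near-identical neighbours may have been split or dropped in the authors' counting, so levels within a run are uncertain where copies are alike.

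The run of 5 lies on chromosome 15 between Glyma.15G239200 and Glyma.15G239700 and supplied 11.6% of all R5 counts of the set. Its genes together gave 1008 and 1229 CPM in Thorne, while the sums were 469 and 753 CPM for double mutants and 1358 and 517 CPM for single mutants. The lowest sums were again those of the close pair. Both double mutant sums lay below both of wild type, and the single mutant held the highest sum and the second lowest. All 5 genes had 0 counts in all 6 V5 libraries. They moved nearly in step: the correlation of their log2 deviations over the 6 R5 libraries was 0.97 to 1.00 for each pair of genes. Correlations above 0.9 were also found in 13.9% of all pairs of genes in the set. Glyma.15G239200 held between 22.2% and 27.5% of the sum in every library. One ID inside the run, Glyma.15G239400, was not in the set, with 1.18 to 3.24 CPM at R5 and up to 0.807 CPM at V5 in the single mutant replicate 2. Of the 2 IDs on either side of the run, Glyma.15G239100 had up to 0.685 CPM at R5 and up to 1.42 CPM at V5, and the others had at most 1 count over all 12 libraries.

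**Figure D4:**
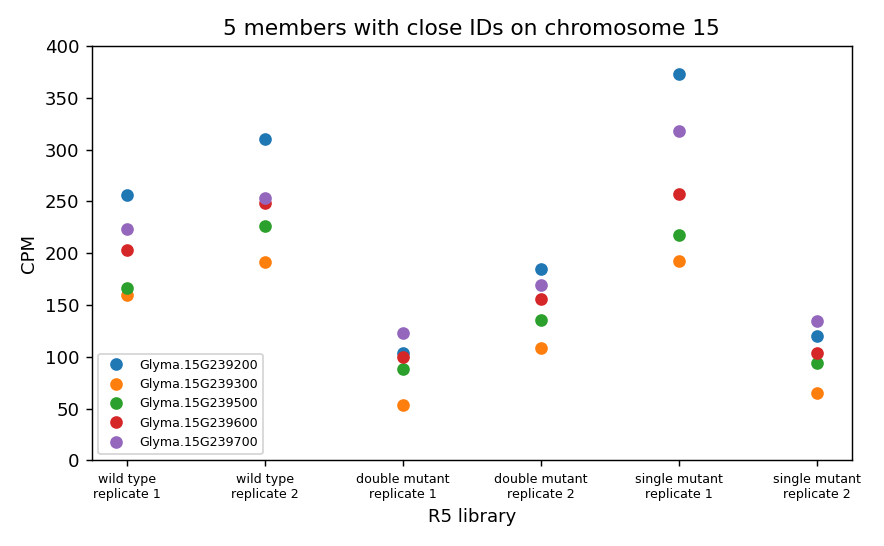
CPM of the 5 genes of the chromosome 15 run in each R5 library. The 2 lowest libraries are those of the close pair, double mutant 1 and single mutant 2. The order of the points is the same across libraries, except that Glyma.15G239700 lies above Glyma.15G239200 in the close pair. Their spacing in CPM differs between libraries.

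Closeness did not always go with a shared pattern. The genes of a run on chromosome 2, Glyma.02G141900 and Glyma.02G142100, had a correlation of 1.00 over the 6 R5 libraries. In 4 of the 15 runs the lowest correlation between genes was negative, and in 4 runs every correlation was above 0.9. The most abundant gene, Glyma.07G115500, and the gene with the ID just before it, Glyma.07G115400, had a correlation of -0.33. Glyma.07G115400 gave 153 and 52.6 CPM for wild type, 126 and 98.8 CPM for the double mutant, and 103 and 139 CPM for the single mutant, without the drop of its neighbour in the close pair. The median correlation over all pairs of the 200 genes was 0.10, with 47.2% of pairs negative and 13.9% above 0.9. These correlations share the same 6 libraries and are descriptions.

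The genotypes were compared at R5. The rule did not contrast genotypes, but it ranked genes by their mean over all 6 R5 libraries, so a gene high in 1 genotype could enter through it. For 57 of the 200 genes the mean of at least 1 genotype was below 6.91 CPM, the lowest mean kept, and this held for 30 genes in wild type, 26 in double mutants and 13 in single mutants. The genotype counts over the set are therefore descriptions. Mutant plants were set against wild type, and against each other, in 1 fit of the 6 R5 libraries over 37058 genes with the quasi-likelihood test of edgeR, calling genes at a Benjamini-Hochberg adjusted p under 0.05. All 200 genes passed the filter on low counts at R5. None passed it at V5, so genotypes could not be compared there. The comparisons with wild type share the wild-type libraries, and their values stand side by side without a count of overlap.

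No gene of the set was called in the double mutant against wild type by edgeR, as for 0% of all genes tested. At an unadjusted p under 0.05 edgeR had 6 genes higher and 8 lower in the double mutant, or 3% and 4% of the set beside 1.25% and 1.69% of all genes. DESeq2 called 3 genes of the set, 1.5% beside 0.157% of all. The 2 double mutant libraries lay above both wild-type libraries for 41 genes (20.5%, beside 20% of all genes) and below both for 76 (38%, beside 20.5%), in CPM scaled by TMM. The median log2 fold change was -0.24 in the set and -0.02 over all genes. It was -0.073 without the double mutant replicate 1, -0.31 without its replicate 2 and -0.072 without the close pair.

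In the single mutant against wild type, edgeR called 0 genes of the set and 0% of all genes. At an unadjusted p under 0.05 it had 7 genes higher and 6 lower, or 3.5% and 3% of the set beside 2.9% and 2.59% of all. DESeq2 called 3 genes, 1.5% of the set beside 0.197% of all genes. Groups did not overlap for 35 higher genes (17.5%, beside 22.2%) and 31 lower genes (15.5%, beside 25.6%). The median log2 fold change was -0.01 in the set and 0.00 over all genes. It moved to -0.26 without the single mutant replicate 1, to 0.077 without its replicate 2 and to 0.098 without the close pair.

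Between the double and the single mutant edgeR called 0 genes of the set and 0% of all genes, with 0 genes of the set at an unadjusted p under 0.05 in either direction (0.0513% of all genes were higher and 0.216% lower). DESeq2 also called 0, as for 0% of all genes. The mutants did not overlap for 5 genes higher in the double mutant (2.5%, beside 7.91%) and 12 lower (6%, beside 9%). All of these counts include the close pair, which has a library in each mutant. The median log2 fold change was -0.12 in the set. Leaving out libraries gave 0.049 (single mutant replicate 1 omitted) and -0.25 (double mutant replicate 2 omitted). An estimated difference of at least 2-fold was found in 3% of the set between the mutants, beside 2.58% of all genes. Against wild type it was found in 34% of the set for the double mutant, beside 11.6% of all genes, and in 29% for the single mutant, beside 11.7%.

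**Figure D5:**
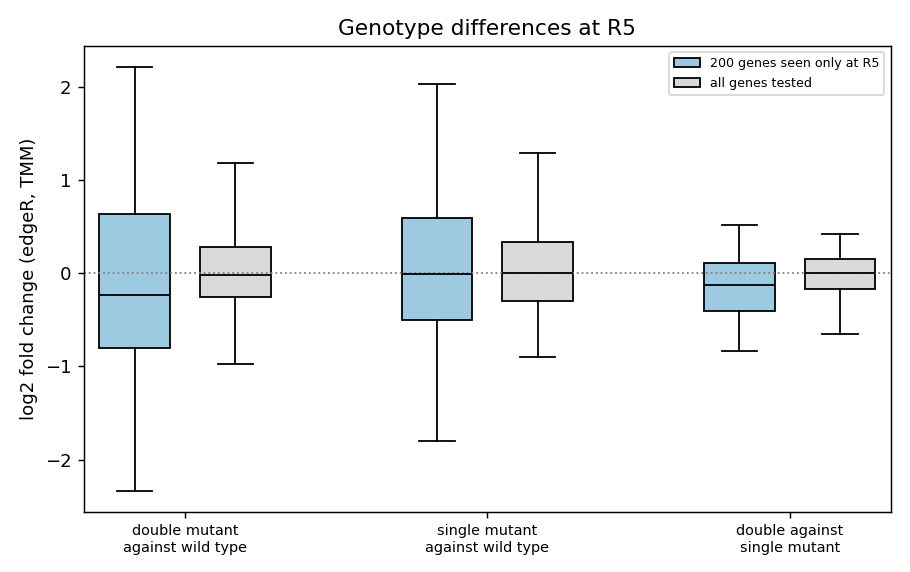
Log2 fold changes between genotypes at R5, from edgeR after TMM scaling, for the 200 genes (blue) and all 37058 genes tested (grey). Boxes give the quartiles and median and whiskers run from the 5th to the 95th percentile. The medians of the set are -0.24, -0.01 and -0.12, and its boxes are wider than those of all genes, least so between the mutants.

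With no gene past the threshold, those named here have the smallest unadjusted p among genes whose groups did not overlap. For Glyma.01G142400 the wild-type values were 19.2 and 21.5 CPM, the double mutant values 53.6 and 64.9 CPM, and the single mutant values 65.0 and 64.4 CPM. All 4 mutant libraries lay well above both wild-type libraries, and the close pair did not stand apart. The log2 fold change from wild type was 1.65 (SE 0.17) for the double mutant, edgeR adjusted p 0.779, and 1.73 (SE 0.18) for the single mutant, edgeR adjusted p 0.585. The DESeq2 adjusted p was 3.22e-10 and 3.60e-11, the smallest over the 13 alternatives run, whose largest were 1 and 0.999. The estimate changed little as libraries were left out, from 1.58 to 1.72 in the double and 1.62 to 1.83 in the single mutant.

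For Glyma.08G138200 wild type gave 81.3 and 88.9 CPM, the double mutant 358 and 208 CPM, and the single mutant 235 and 354 CPM. The groups did not overlap, although the 2 highest values are those of the close pair. Double mutants differed from wild type by a log2 fold change of 1.86 (SE 0.44), with adjusted p 0.779 in edgeR and 0.0133 in DESeq2. Single mutants differed by 1.88 (SE 0.44), with adjusted p 0.585 in edgeR and 0.0124 in DESeq2. No alternative run with edgeR called this gene. Without the close pair, which leaves 1 library per mutant, the edgeR log2 fold changes were 1.34 (double) and 1.43 (single).

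Transcripts of Glyma.11G038600 reached 40.5 and 177 CPM in Thorne, but 1.12 and 3.63 CPM in double mutants and 2.31 and 2.45 CPM in single mutants. Every mutant library was thus far below both wild-type libraries, which themselves differed widely. The log2 fold change was -5.44 for both mutants (SE 0.92 double, SE 0.91 single), and edgeR gave an adjusted p of 0.779 (double) and 0.585 (single). DESeq2 gave adjusted p of 1.81e-09 and 2.01e-09, again the smallest over the alternatives, whose largest were 1 and 0.999. Without the close pair the edgeR log2 fold changes were -4.85 (double) and -5.58 (single), and DESeq2 did not call the gene. Those fits leave 1 library per mutant, so spread rests on the wild-type libraries and no conclusion is drawn. Its mean of 2.38 CPM in each mutant is below the lowest mean kept, so it entered the set through wild type. Depending on the library left out, the estimate ran from -6.40 to -4.02 in the double and from -6.14 to -4.03 in the single mutant. These 3 genes are the calls of DESeq2 in the set when all 6 R5 libraries are used.

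The other genes named by the rule had weaker values. Glyma.13G343000 gave 7.00 and 30.9 CPM in Thorne against 2.81 and 4.00 CPM in double mutants, with a log2 fold change of -2.37 (SE 0.80). Its double mutant mean of 3.41 CPM is also below the lowest mean kept. Its estimate was -0.94 at the weakest when libraries were left out in turn. Glyma.13G104700 gave 26.0 and 26.5 CPM in Thorne against 9.56 and 3.99 CPM in single mutants, with a log2 fold change of -1.93 (SE 0.58). Its single mutant mean of 6.78 CPM is below the lowest mean kept too. EdgeR's adjusted p was 0.779 for the first and 0.585 for the second, and that of DESeq2 was 0.332 and 0.220. Neither gene was called by any alternative run with edgeR. Between the mutants, Glyma.08G269600 gave 48.9 and 70.2 CPM (double) against 48.6 and 40.8 CPM (single), and Glyma.01G021000 gave 1.72 and 1.67 CPM (double) against 8.64 and 14.4 CPM (single). The log2 fold changes were 0.46 (SE 0.20) and -2.74 (SE 1.26), with an edgeR adjusted p of 1 for both. With the mutant libraries paired crosswise the edgeR adjusted p of Glyma.01G021000 was 0.0619, its lowest over the alternatives. For Glyma.08G269600 the lowest was further from the threshold. Wild type spanned the range of the mutants for Glyma.01G021000, at 1.26 and 26.1 CPM. The double mutant mean of this gene, 1.70 CPM, is also below the lowest mean kept.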

How the data were processed

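RNA-seq read counts were used from 12 libraries of soybean in 6 groups of 2. The authors deposited 1 table of whole-number counts per library for 56044 gene IDs, per the file headers. The tools named by the submitters' processing notes are HTSeq, HISAT2 and Bowtie. For their roles and versions, the build, the annotation and the strand setting, nothing is given in the sources used here. Totals were 20410270 to 34626177 counts, and intervals cover counting error only.

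The rule was applied to CPM from these counts. Genotypes at R5 were tested on the 6 R5 libraries in edgeR (version 4.0.16, on R 4.3.3) with glmQLFTest, its quasi-likelihood test, after TMM and filterByExpr (minimum count 10, minimum total 15), leaving 3 residual degrees of freedom. P-values were adjusted over all genes tested. The SE of a log2 fold change was worked back from this test, as its size divided by the square root of the F statistic. The code was tested on simulated counts with large changes and a fixed spread. This checks the code and not how many differences these libraries could show. The alternatives included DESeq2 1.42.0, RLE factors, no filter, a replicate block, and libraries left out. DESeq2 and edgeR without the close pair leave each mutant with 1 library, which is assumed to vary like the others. Some alternatives were added after seeing the data.

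The 200 genes, the named-gene rule and the lists were chosen with earlier results of these data known. At most 2 IDs per direction and comparison were named by smallest p among non-overlapping groups, and other IDs were chosen for their level, spread or position after their values were seen. Product lists, markers and paralog comparisons could not be filled, since 0 IDs matched a name.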

Additional observations from a re-analysis of the deposited data

How the results depend on the processing

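Calls depended on the tool. EdgeR called 0 genes in every R5 comparison under every alternative run with it. Against wild type DESeq2 called 58 genes for double and 73 for single mutants, 3 of the set in each. Without the close pair DESeq2 called 24, 165 and 65 genes in the double mutant, the single mutant and between the mutants, with 2, 7 and 3 of the set. The fits without the close pair tested 37455 genes, all 200 of the set among them. They leave each mutant with 1 library, so between the mutants 1 library is set against 1. Only wild type then has replicates from which to estimate spread, and no conclusion is drawn from these counts. Why the tools differed was not tested.

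With the replicate block the median log2 fold change of the set was -0.21, -0.01 and -0.18 in those comparisons, and edgeR called 0 genes. Replicate numbers do not pair the R5 libraries: the difference between replicates correlated at 0.34, -0.38 and -0.74 over 32233 genes between wild type and double, wild type and single, and double and single mutant. With the mutant libraries paired crosswise edgeR called 0 genes, 0 of them in the set. Leaving out 1 library moved the median to between -0.31 and -0.073, between -0.26 and 0.077, and between -0.25 and 0.049.

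Without the close pair the median SD of the set fell from 0.70 to 0.43 and the genes with a 4-fold range from 75 to 18. Demanding 0 V5 counts left 160 genes meeting the rule and 91 of the 200, and an R5 limit of 2 CPM left 254, both fewer by construction. TMM scaling left 299 and 169. Leaving out 1 library gave 400 to 563 genes and kept 150 to 199 of the 200, with both extremes of 563 and 150 reached without the single mutant V5 replicate 2. A window of 1 ID gave 10% of genes with a neighbour in the set, in place of 18%. The planned paralog alternatives were not run.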
